A study of Mus musculus with 16 samples.

Results

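The 10 genes described here are Fgf21, Gdf15, Atf4, Atf5, Ddit3, Trib3, Asns, Chac1, Phgdh and Psat1, a hormone and stress response set that liver cells use when amino acids run short. They were chosen by symbol for what they are known to do, with earlier results of these data known. They were found in 11 of the 54752 gene rows counted in each library, since Ddit3 has 2 gene models. The second Ddit3 model held 0 reads in every library, so the values below are those of the full-length model. All 10 genes passed the filter on low counts that left 17833 genes for testing.

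Liver RNA was sequenced from 16 male mice, 4 on each of 4 diets, all 11 weeks old, all F1 hybrids of C57BL6J and FVBN, and all of the genotype Ercc1Δ/−, which impairs DNA repair and brings early ageing. There were no animals with intact Ercc1, so every value, controls included, belongs to this progeroid background. All animals ate the synthetic diet AIN93G until 8 weeks of age and then stayed on it (control) or changed to 1 of 3 diets of equal energy. The high protein diet held about 194% of the standard protein with 70% of the carbohydrate. The low protein diet held 70% of the protein with about 112% of the carbohydrate. The low fat diet held 70% of the fat with about 112% of the carbohydrate, so it shared its carbohydrate content with the low protein diet while its protein was not lowered. The 4 comparisons are each diet against control, which share the same 4 control libraries, and high against low protein. The last compares no control mean but reuses the same high and low protein libraries. Its p-values and intervals still rest on a spread estimated over all 16 libraries, controls included.

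When an amino acid is scarce, the kinase GCN2 phosphorylates the initiation factor eIF2alpha, general protein synthesis slows, and translation of the transcription factor ATF4 rises. ATF4 then switches on genes for amino acid synthesis, transport and tRNA charging, together with its own brakes, and in liver it also acts on the gene of the secreted hormone FGF21, which adapts feeding and energy use to low protein intake. Because ATF4 is controlled largely at translation, the level of its own mRNA is only a partial readout of its activity. Other stresses that converge on eIF2alpha, and for Fgf21 also fasting and carbohydrate, act on the same genes.

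ATF4 and its C/EBP partners bind a composite element known as CARE, and the data bear on genes that carry it, so the element was searched for as the letters TGATGNAA on both strands of RefSeq promoters (GRCm38.p6, 250 bases before to 50 after each transcription start). It was present in 4 of the 10 genes, Fgf21, Trib3, Asns and Chac1, against 1219 of 27025 genes with a promoter in the table (4.51%). Of the 70 further pathway genes described below, 53 had a promoter there under the symbol used, and 14 of these held it. The rest were not searched. The palindrome TGACGTCA, a cyclic AMP response element, was in 0 of the 10 and in 2.03% of all genes; the letters of the 2 motifs do not contain each other. A match is a description of the letters, not of binding, and the 6 genes without one may hold the element elsewhere. The 3 windows below, written 5′ to 3′ on the strand of the gene with the matched letters in capitals, are shown because their genes had fold changes of different sign on the same diets.
Fgf21 (chr7:45615598-45615653, minus strand): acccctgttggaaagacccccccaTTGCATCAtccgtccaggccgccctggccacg
Asns (chr6:7693210-7693256, minus strand): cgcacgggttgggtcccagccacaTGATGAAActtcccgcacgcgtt
Chac1 (chr2:119351025-119351080, plus strand): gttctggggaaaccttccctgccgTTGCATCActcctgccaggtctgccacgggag
Counted from the RefSeq start, the first base of the match lay 139 bases before it in Fgf21, 23 before it in Asns and 193 before it in Chac1. Fgf21 and Chac1 held the same 8 letters, on the strand opposite to the gene, while the match of Asns was on the gene's own strand. Trib3 held TTACATCA, also opposite to the gene, 14 bases after its RefSeq start (chr2:152344039-152344046). The counted gene models, whose positions are given below, start at 7693254 for Asns and 152344032 for Trib3, both on the minus strand. By those starts the Asns match lies inside the gene and the Trib3 match before it.

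Library totals ran from 35243594 to 112789127 counts, with low fat 2 the deepest. The 10 hepatocyte markers summed to between 84650 and 118100 CPM (counts scaled to a common library size) in every library, and none was at 0. Control 4 stood apart: it held the highest value of all 16 libraries for 29.1% of the genes tested and the lowest for 26.1%, against 11.5% for the next highest, control 3, and 10.1% for the next lowest, low fat 3. Kidney transcripts were present, with 20 kidney genes summing to 1.17 CPM in high protein 1, where 14 of them were at 0, and to 5133 CPM in control 3. Skeletal muscle and adipocyte markers stayed at or under 0.323 CPM in sum, and of 10 exocrine pancreas markers only Cela1 and Cela2a passed the filter. Values without control 3, control 4 or high protein 1 are given beside some of the results.

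No gene passed an adjusted p of 0.05 in edgeR's quasi-likelihood test in any of the 4 comparisons, so 0 of the 10 did, against 0.0% of all genes tested. The smallest adjusted p over all genes was 0.762 for high protein against control, 0.682 for low protein against control, 0.53 for low fat against control and 0.787 for high against low protein. At an unadjusted p under 0.05, edgeR gave 1 of the 10 for high protein against control (6.22% of all genes), 2 for low protein against control (7.08%), 3 for low fat against control (9.22%) and 0 for high against low protein (5.17%). DESeq2 also called 0 of the 10 in each comparison, and across all genes it called 1, 10, 4 and 25 in the same order. The edgeR spread is shared by all 16 libraries, so the controls also enter the p-values of high against low protein. Fitted on high and low protein libraries alone, that comparison gave 2 of the 10 at an unadjusted p under 0.05, beside 2034 of 16638 genes. Its smallest edgeR adjusted p was then 0.0901. Without controls 3 and 4 it gave 2 of the 10, 2228 of 18443 genes and 0.0533. The libraries of a diet and of control overlapped for all 10 genes in all 3 comparisons with control, where 1.96% of all genes did not overlap for high protein (1.12% higher), 2.48% for low protein (1.61% higher) and 2.59% for low fat (1.27% higher). Between high and low protein 1 of the 10, Phgdh, did not overlap, against 6.61% of all genes. A p that misses the threshold does not show equal levels, and the intervals below give the sizes allowed under the shared spread.

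**Figure D1:**
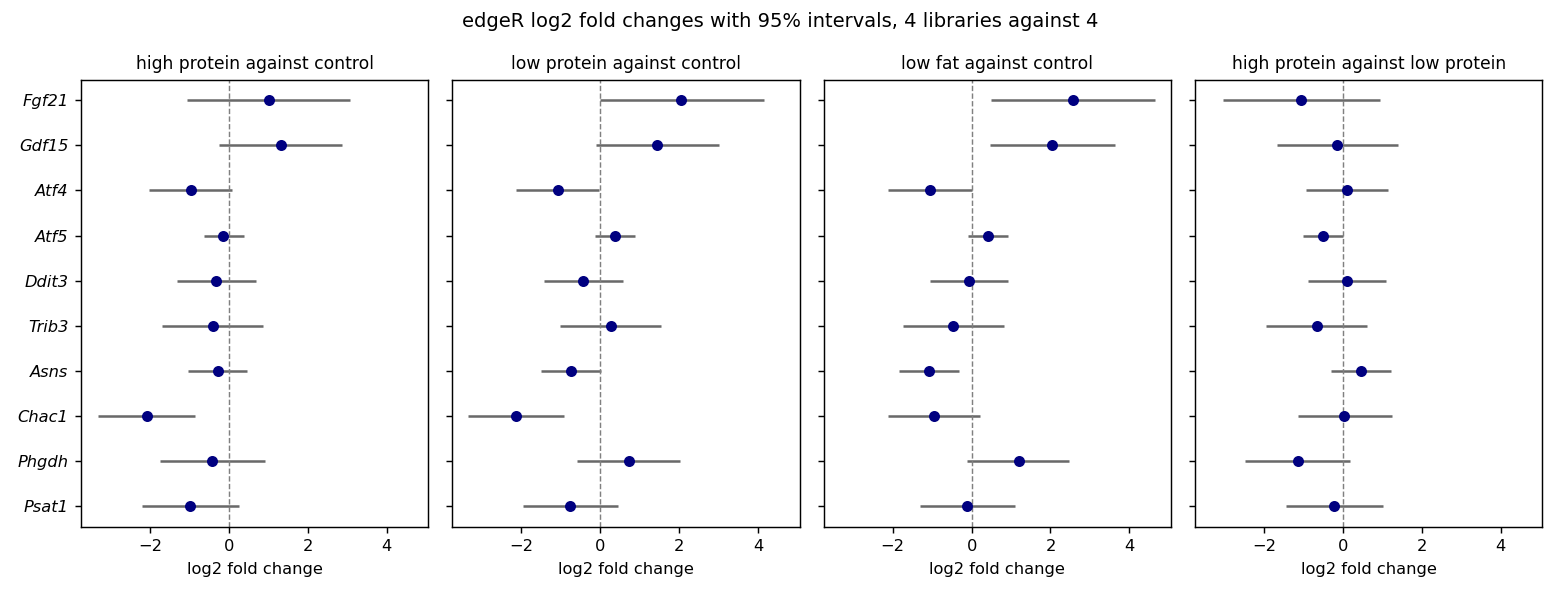
Each point is the edgeR log2 fold change of 1 gene and each line its 95% interval, in 4 panels for the 4 comparisons, with 4 libraries on each side and a dashed line at 0. The intervals of all panels rest on a spread shared by all 16 libraries. Chac1 lies left of 0 for high and low protein against control, Atf4 lies left of 0 for low protein and Asns for low fat, Fgf21 and Gdf15 lie right of 0 for low fat, and for high against low protein all 10 intervals include 0.

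Per kilobase of exon, which allows levels to be compared between genes, Atf5 was the most abundant transcript, with a mean over the 16 libraries of 137 RPKM (CPM per kilobase of exon), followed by Atf4 at 42.8, Trib3 at 11.2, Gdf15 at 8.29, Ddit3 at 6.99, Chac1 at 3.34 and Fgf21 at 1.78. The biosynthetic enzymes Asns at 0.804, Psat1 at 0.354 and Phgdh at 0.310 RPKM came last. Many neighbours in this order overlapped library by library: Trib3 ran from 3.01 to 29.6 RPKM and Gdf15 from 1.49 to 23.7. Fgf21 was counted 3 to 882 times per library and Phgdh 5 to 105 times, so their lowest values carry wide counting error.

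**Figure D2:**
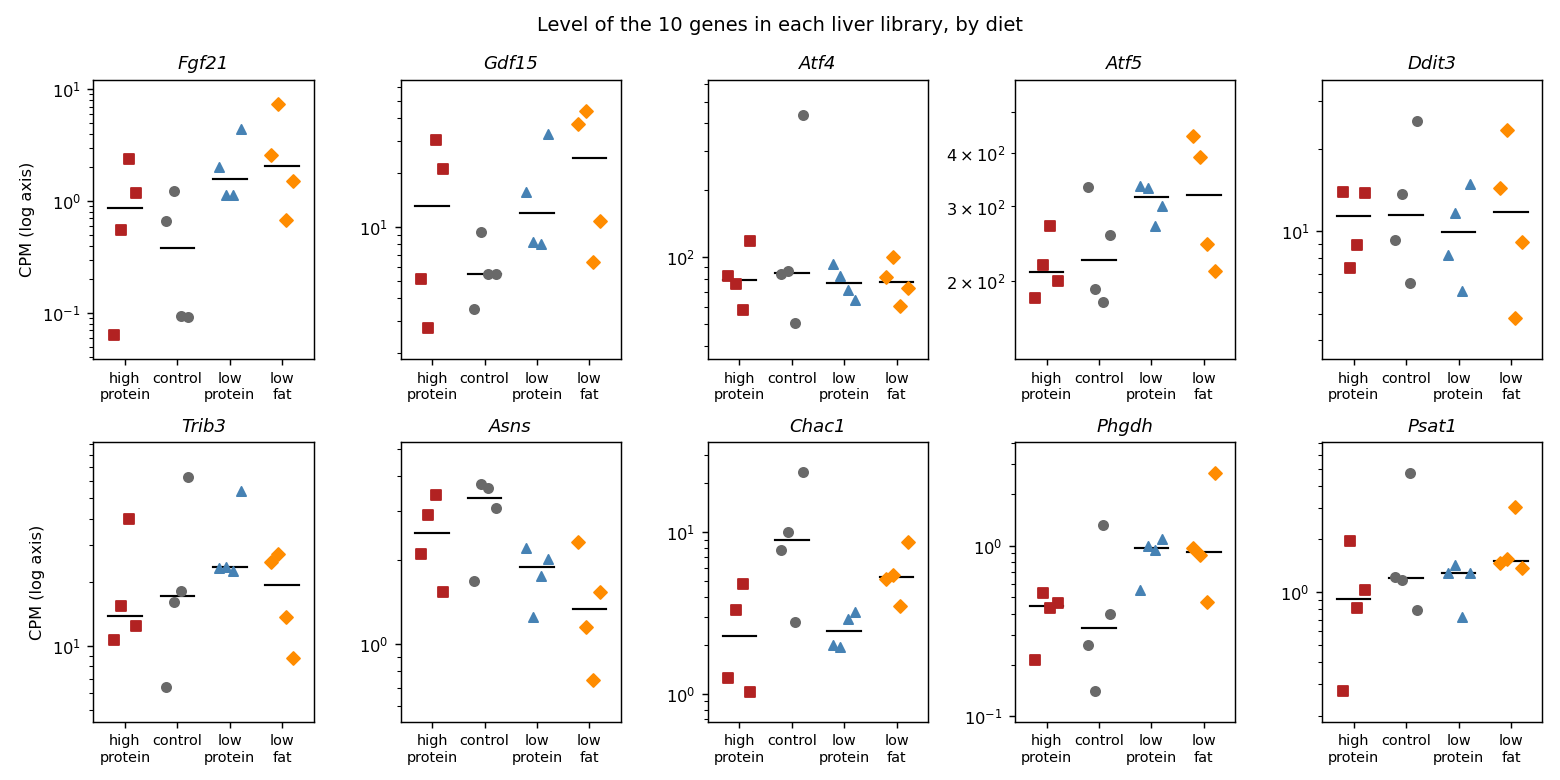
Each panel is 1 gene, each point 1 liver library in CPM on a log axis, and each bar the median of the 4 libraries of a diet. Fgf21 and Gdf15 spread widely within every diet, a single control library stands far above the rest for Atf4, and Phgdh is the only gene whose high and low protein points do not overlap.

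Fgf21 (chromosome 7, 45613886 to 45615490, minus strand, GRCm38), the fasting and low-protein hormone secreted by liver, was at 0.668, 1.23, 0.0940 and 0.0921 CPM in controls 1 to 4. On high protein it was at 0.0638, 0.556, 2.38 and 1.19 CPM, on low protein at 2.02, 1.12, 1.13 and 4.41 CPM, and on low fat at 2.58, 7.38, 0.675 and 1.51 CPM. The lowest 3 of the 16 libraries were controls 3 and 4 and high protein 1, with 5, 3 and 3 reads, and all 4 low protein libraries lay above 3 of the 4 controls. The highest was low fat 2, also the most deeply sequenced library.

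In order of their means, Fgf21 stood at 3.04 ± 3.00 CPM on low fat, 2.17 ± 1.55 on low protein, 1.05 ± 1.00 on high protein and 0.522 ± 0.546 in controls (SD, n = 4 each), and neighbouring diets in that order overlapped. The log2 fold change against control was 2.57 on low fat (95% interval 0.48 to 4.66, edgeR adjusted p = 0.53) and 2.06 on low protein (-0.01 to 4.14, edgeR adjusted p = 0.682). These correspond to fitted levels 5.93-fold and 4.18-fold those of control, neither of which passed the test. On high protein it was 1.01 (-1.06 to 3.08, edgeR adjusted p = 0.805), and high against low protein gave -1.05 (-3.04 to 0.93, edgeR adjusted p = 0.995). The diets with the higher mean values were the pair rich in carbohydrate, of which 1 was low in protein. The part of carbohydrate or protein content in this order was not tested. Without controls 3 and 4, the low values of the control group, the log2 fold changes against control became 1.70 on low fat, 1.18 on low protein and 0.12 on high protein. Without control 2, the control with the most Fgf21, they became 3.46, 2.96 and 1.90, and without high protein 1 the last was 1.41. Over all alternatives the values ran from 1.6 to 3.46 on low fat, 1.18 to 2.96 on low protein and -0.29 to 1.9 on high protein, the lowest of these from limma-voom with library quality weights.

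Gdf15 (chromosome 8, 70629393 to 70632456, minus strand), which encodes a stress hormone that lowers food intake through a brainstem receptor, was at 3.48, 9.30, 5.47 and 5.50 CPM in controls 1 to 4. On high protein it was at 5.14, 2.75, 30.1 and 20.9 CPM, on low protein at 15.5, 8.24, 8.04 and 32.9 CPM, and on low fat at 37.3, 43.9, 6.33 and 10.8 CPM. On high and low protein 2 of 4 libraries exceeded every control, and on low fat 3 of 4 did, while at least 1 library of each diet lay within or below the control range. The log2 fold change against control was 2.05 on low fat (95% interval 0.46 to 3.64, edgeR adjusted p = 0.53), 1.44 on low protein (-0.12 to 3.01, adjusted p = 0.682) and 1.31 on high protein (-0.26 to 2.87, adjusted p = 0.762). High and low protein had close means, 14.7 ± 13.1 and 16.2 ± 11.7 CPM (SD, n = 4 each), with a log2 fold change of -0.14 (-1.66 to 1.39, edgeR adjusted p = 0.998). That sign turned with single libraries, reaching 0.49 without low protein 4. All 3 values against control stayed above 0 in every alternative run, from 1.6 to 2.37 on low fat, 0.82 to 1.75 on low protein and 0.63 to 1.66 on high protein.

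Gdf15 was also the gene whose levels ordered the libraries most like those of Fgf21, first among 17832 genes by Spearman correlation over the 16 libraries (rho = 0.93, Pearson r = 0.78 in log2 CPM). Pearson's r was 0.70 after each diet's mean was subtracted and 0.81 without control 4 and high protein 1, the libraries farthest from the median of Fgf21. The 4 libraries highest in Gdf15, low fat 2 and 1, low protein 4 and high protein 3, were also the 4 highest in Fgf21, and they came from 3 diets. The 5 genes outside the set that followed were Rassf4 (rho = 0.91), C730034F03Rik (0.91), Ly86 (0.91), Gmppa (0.89) and Ctsw (0.88), all with Pearson's r between 0.77 and 0.89. Ly86 encodes a lymphocyte antigen that partners a Toll-like receptor homologue, and Ctsw a cathepsin of cytotoxic lymphocytes.

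Among the other members, Atf5 stood at place 626 in that order (rho = 0.59), Trib3 at 1971 (0.42), Phgdh at 2789 (0.35), Ddit3 at 4200 (0.25), Chac1 at 5805 (0.16), Psat1 at 6355 (0.14), Atf4 at 9836 (-0.02) and Asns at 12851 (-0.17). For Atf4, Pearson's r with Fgf21 was -0.27 over the 16 libraries and 0.42 without control 4 and high protein 1. These correlations are descriptions over 16 libraries of 4 diets that share their processing.

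Kupffer cell markers and T and NK cell markers correlated with both hormones over the 16 libraries. The summed level of 10 Kupffer cell markers, the resident macrophages of liver, correlated with Fgf21 (r = 0.70, rho = 0.66) and Gdf15 (r = 0.67, rho = 0.61), and that of 10 T and NK cell markers with Fgf21 (r = 0.61, rho = 0.61) and Gdf15 (r = 0.64, rho = 0.65). Kupffer markers summed to 166 to 299 CPM of library totals in controls, 224 to 297 on high protein, 233 to 347 on low protein and 268 to 432 on low fat. T and NK markers summed to 2.65 to 6.21 CPM in controls, 5.20 to 6.55 on high protein, 4.73 to 9.38 on low protein and 6.32 to 11.9 on low fat. None of the 10 markers of either list was at 0 in every library. Control 4 was the lowest library for Kupffer markers and low fat 2 the highest, and r with Fgf21 was 0.46 without them. After each diet's mean was subtracted, r with Fgf21 and Gdf15 was 0.58 and 0.54 for Kupffer markers and 0.38 and 0.47 for T and NK markers. The hepatocyte sum was not related to Fgf21 in this way (r = 0.19, rho = 0.09 over the 16 libraries). Endothelial, stellate cell and cholangiocyte markers were not set against the hormones. The part of these cells in the hormone values was not tested, and in whole liver fewer cells of a type and less RNA per cell cannot be told apart.

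**Figure D3:**
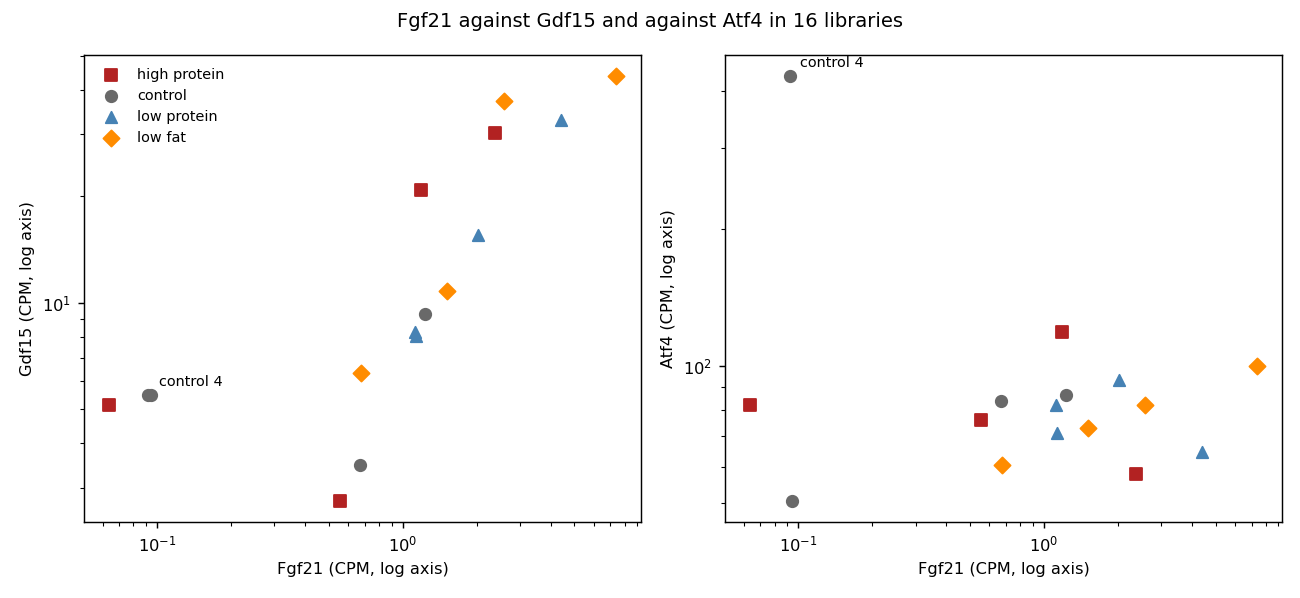
Each point is 1 of 16 liver libraries, with Fgf21 on the horizontal axis and Gdf15 (left) or Atf4 (right) on the vertical axis, all in CPM on log axes, and with the diet given by colour and shape. Libraries of all 4 diets lie along 1 rising band for Gdf15 (rho = 0.93), whereas for Atf4 rho is -0.02 over the 16 libraries and control 4 sits alone at the top left.

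Atf4 (chromosome 15, 80255184 to 80257541, plus strand), the transcription factor at the centre of the response, was at 83.6, 86.3, 50.5 and 433 CPM in controls 1 to 4. The high protein libraries held 82.1, 76.1, 57.7 and 118 CPM, those on low protein 92.9, 82.0, 71.1 and 64.5 CPM, and those on low fat 81.9, 99.7, 60.4 and 73.0 CPM. Outside control 4 all 15 libraries lay between 50.5 and 118 CPM, with high protein 4 the next highest. Against control its log2 fold change was -1.07 on low protein (edgeR adjusted p = 0.682), -1.05 on low fat (adjusted p = 0.539) and -0.97 on high protein (adjusted p = 0.762). Without control 4 these became 0.06, 0.07 and 0.18. Between high and low protein it was 0.11 (95% interval -0.94 to 1.15, edgeR adjusted p = 0.998). That interval rests on a spread shared by all 16 libraries, control 4 included. The SD was 180 CPM in controls, 25.4 on high protein and 12.5 on low protein. Its width is thus not that of the compared libraries alone, and equal levels are not shown.

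Atf5 (chromosome 7, 44812256 to 44816658, minus strand), a related bZIP factor that is enriched in hepatocytes and likewise translated under stress, was at 333, 192, 179 and 257 CPM in controls 1 to 4. In high protein libraries it was at 183, 219, 271 and 201 CPM, on low protein at 335, 331, 270.5 and 300.3 CPM, and on low fat at 438, 392, 245 and 211 CPM. Low protein libraries were the most alike (309 ± 30.2 CPM, SD, n = 4), and 3 of the 4 high protein libraries lay below all of them (218 ± 38.0 CPM). The highest high protein value, 270.6, was just above the lowest low protein one, 270.5. High against low protein gave a log2 fold change of -0.50 (edgeR adjusted p = 0.96) and lay between -0.62 and -0.43 in every alternative run. Against control it was 0.37 on low protein (adjusted p = 0.704), 0.42 on low fat (adjusted p = 0.579) and -0.14 on high protein (adjusted p = 0.889) in edgeR. Atf5 overlaps Nup62 and Il4i1 on the other strand, and as the strand setting of the counting is not given in the sources used here, reads of the 3 genes cannot be told apart with certainty.

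Ddit3 (chromosome 10, 127290774 to 127296288, plus strand), which encodes CHOP, the factor linked to cell death under prolonged stress, was at 9.29, 13.7, 6.45 and 25.4 CPM in controls 1 to 4. The ranges were 7.33 to 13.9 CPM on high protein, 6.06 to 14.9 on low protein and 4.82 to 23.5 on low fat, so all 4 diets overlapped. Log2 fold changes against control were -0.32, -0.43 and -0.07 on high protein, low protein and low fat (edgeR adjusted p = 0.869, 0.812 and 0.966). Without control 4 they became 0.16, 0.04 and 0.38. High against low protein gave 0.11 (95% interval -0.88 to 1.10, edgeR adjusted p = 0.998). Ddit3 overlaps Gm4189 and the tRNA synthetase gene Mars on the other strand.

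Trib3 (chromosome 2, 152337422 to 152344032, minus strand), a pseudokinase that ATF4 and CHOP induce and that restrains both, was at 6.39, 16.2, 18.2 and 63.0 CPM in controls 1 to 4. High protein libraries had 10.6, 15.4, 39.8 and 12.5 CPM, low protein libraries 23.4, 23.6, 22.6 and 54.2 CPM, and low fat libraries 25.1, 27.2, 13.7 and 8.76 CPM. The 4 low protein libraries all lay above 3 of the 4 controls and above 3 of the 4 high protein libraries, but in each of these 3 diets 1 library stood well above the others. Low protein against control gave a log2 fold change of 0.26 (95% interval -1.02 to 1.53, edgeR adjusted p = 0.909), and without control 4 it was 1.17 (adjusted p = 1.00). For high against low protein it was -0.66 (-1.94 to 0.62, adjusted p = 0.995), and it stayed between -1.27 and -0.23 in every alternative. On high protein and on low fat against control it was -0.41 and -0.47 (edgeR adjusted p = 0.869 and 0.806), which became 0.52 and 0.43 without control 4.

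Control 4 was the highest of the 16 libraries for Atf4, Ddit3, Trib3 and Chac1, at 5.89, 2.59, 4.63 and 3.43 times the mean of controls 1 to 3. Some other genes of the stress program were also highest there. Atf3, a stress-induced partner of the family, was at 162 CPM against at most 5.64 in the other 15 libraries, and Ppp1r15a, the subunit that directs the phosphatase to eIF2alpha, at 110 against at most 28.3. Ddit4 and Sesn2, inhibitors of the growth kinase mTORC1, were at 786 and 138 CPM against at most 203 and 35.7. Of the 14 genes of the list of eIF2alpha kinases, phosphatase subunits and eIF2B, 12 were highest in control 4 and 1 was lowest, where 29.1% of all genes tested were highest and 26.1% lowest. In the other lists, untested genes included, it was the highest library for 6 of 13 genes of tRNA charging and export and the lowest for 0, and for 4 of 9 transporters and 0. It was highest for 2 and lowest for 1 of 5 partner factors, highest for 4 and lowest for 1 of 8 growth effectors, and highest for 4 and lowest for 3 of 10 receptors and regulators of FGF21. Of 11 serine, one-carbon, proline and transamination enzymes it was highest for 3 and lowest for 4. In the same library Fgf21 was at 0.0921 CPM, 0.139 times the mean of the other controls, and Gdf15 at 5.50 and Asns at 3.07 CPM lay within the range of the other controls. Phgdh and Psat1 were at 0.697 and 0.337 times that mean. High Atf4, Ddit3, Trib3 and Chac1 and low Fgf21, from 3 reads, thus occurred together in this animal, and 1 animal gives no replicate of it. Control 3 had a similar Fgf21 value, 0.0940 CPM from 5 reads, with the lowest Atf4 of the 16 libraries, 50.5 CPM.

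**Figure D4:**
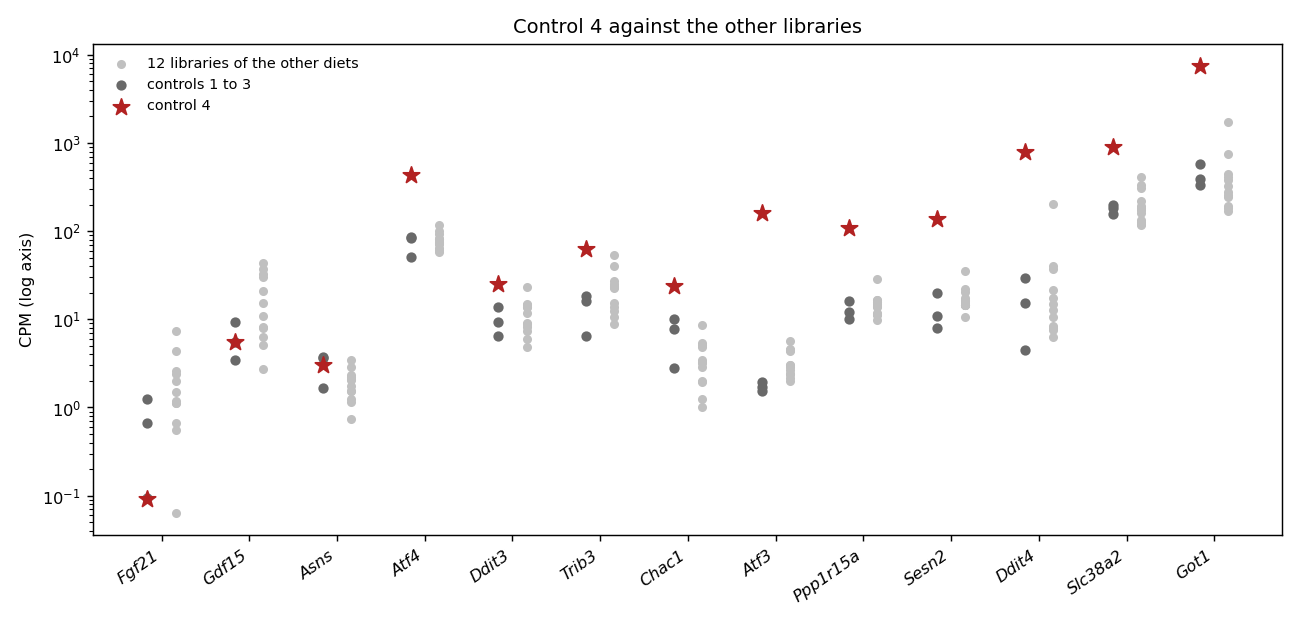
For 13 genes, the star is control 4, dark points are controls 1 to 3 and light points the 12 libraries of the other diets, in CPM on a log axis. Control 4 lies above all other libraries for the 10 genes from Atf4 to Got1, a selection of genes highest there, but not for Fgf21, Gdf15 and Asns. Genes lowest in control 4, such as Psph, Shmt2 and Nupr1, are not shown.

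Asns (chromosome 6, 7675169 to 7693254, minus strand), asparagine synthetase and a standard target of the amino acid response, was at 1.68, 3.76, 3.65 and 3.07 CPM in controls 1 to 4. On high protein it was at 2.10, 2.91, 3.44 and 1.54 CPM, on low protein at 2.22, 1.26, 1.76 and 2.03 CPM, and on low fat at 2.32, 1.15, 0.745 and 1.54 CPM. Its lowest mean values were thus on the diets where Fgf21 had its highest: 1.44 ± 0.671 CPM on low fat and 1.82 ± 0.419 on low protein, against 2.50 ± 0.842 on high protein and 3.04 ± 0.952 in controls (SD, n = 4 each). Neighbouring diets in this order overlapped. The log2 fold change against control was -1.09 on low fat (95% interval -1.85 to -0.32, edgeR adjusted p = 0.53), -0.74 on low protein (-1.50 to 0.02, adjusted p = 0.682) and -0.28 on high protein (adjusted p = 0.845). High against low protein gave 0.46 (-0.30 to 1.22, edgeR adjusted p = 0.984), that is, the higher value came with more dietary protein. All 4 signs were kept in every alternative run, low fat against control between -1.43 and -0.87. At 0.804 RPKM on average Asns was a low transcript in these livers, counted 32 to 194 times per library.

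Chac1 (chromosome 2, 119351229 to 119354381, plus strand), an enzyme that degrades glutathione and is induced through ATF4, was at 7.78, 10.1, 2.78 and 23.6 CPM in controls 1 to 4. On high protein it was at 1.25, 3.31, 4.82 and 1.03 CPM, on low protein at 2.02, 1.94, 2.89 and 3.23 CPM, and on low fat at 5.16, 5.43, 3.49 and 8.65 CPM. Controls 1, 2 and 4 lay above all 8 high and low protein libraries, while control 3 lay within their range. Of the 10 genes Chac1 had the smallest p in both comparisons with control, with a log2 fold change of -2.09 on high protein (95% interval -3.31 to -0.87, edgeR adjusted p = 0.762) and of -2.13 on low protein (-3.35 to -0.91, adjusted p = 0.682). These correspond to 4.25-fold and 4.38-fold lower fitted levels, neither of which passed the test over all genes. Without control 4 they were -1.41 and -1.47, and over all alternatives -2.56 to -1.41 and -2.42 to -1.47. The smallest adjusted p among those was 0.0685, from DESeq2 for low protein, and the largest for low protein was 1.00, from edgeR without control 4. High and low protein had near-equal means (log2 fold change 0.04, 95% interval -1.15 to 1.24, edgeR adjusted p = 0.998). Low fat against control was -0.96 (adjusted p = 0.584) in edgeR and -0.31 without control 4.

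Phgdh (chromosome 3, 98313170 to 98339990, minus strand) and Psat1 (chromosome 19, 15904678 to 15947337, minus strand) encode the enzymes of the first steps from a glycolytic intermediate to serine. Phgdh was at 0.261, 0.140, 1.32 and 0.399 CPM in controls 1 to 4, at 0.213, 0.529, 0.433 and 0.459 on high protein, at 0.549, 0.992, 0.949 and 1.10 on low protein, and at 0.965, 0.878, 0.466 and 2.67 on low fat. Every high protein library lay below every low protein library, which held in this direction for 3.47% of all genes. Its log2 fold change was -1.14 (95% interval -2.47 to 0.19, edgeR adjusted p = 0.96), and -0.68 with the kidney level as a covariate. Against control it was 0.72 on low protein, 1.19 on low fat and -0.42 on high protein (edgeR adjusted p = 0.762, 0.559 and 0.873). Without control 3, the control with the most Phgdh, these became 1.77, 2.24 and 0.64, and the adjusted p for low fat was 0.0750.

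Psat1 was at 1.22, 1.18, 4.72 and 0.798 CPM in controls 1 to 4, at 0.276, 1.96, 0.812 and 1.03 on high protein, at 1.28, 1.43, 0.723 and 1.29 on low protein, and at 1.46, 1.55, 3.03 and 1.38 on low fat. Control 3 was the highest and high protein 1 the lowest of the 16 libraries, which are also the libraries with the most and the fewest kidney transcripts. Log2 fold changes against control were -0.98 on high protein, -0.76 on low protein and -0.11 on low fat (edgeR adjusted p = 0.762, 0.737 and 0.958), and without control 3 they became -0.06, 0.15 and 0.81. Without high protein 1 the value on high protein was -0.66. High against low protein gave -0.22 (edgeR adjusted p = 0.998), 0.23 with the kidney level as a covariate and 0.10 without high protein 1. Psat1 overlaps Gm3329 on the other strand.

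Both serine genes, which kidney expresses strongly, followed the kidney level across the 16 libraries. Pearson's r with the summed level of 20 kidney genes was 0.82 for Psat1 (rho = 0.85) and 0.68 for Phgdh (rho = 0.71). After each diet's mean was subtracted it was 0.84 and 0.58, and without control 2 and high protein 1, the libraries farthest from the median kidney level, 0.78 and 0.62. The kidney level ran from 87.1 to 5133 CPM of library totals in controls, 1.17 to 1522 on high protein, 660 to 1223 on low protein and 992 to 3044 on low fat. All 20 kidney genes were found and tested. For the other 8 members r lay between -0.34 (Ddit3) and 0.39 (Fgf21), and that of Fgf21 was -0.02 without the same 2 libraries. The part of kidney RNA in the values of Phgdh and Psat1 was not tested beyond the covariate.

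**Figure D5:**
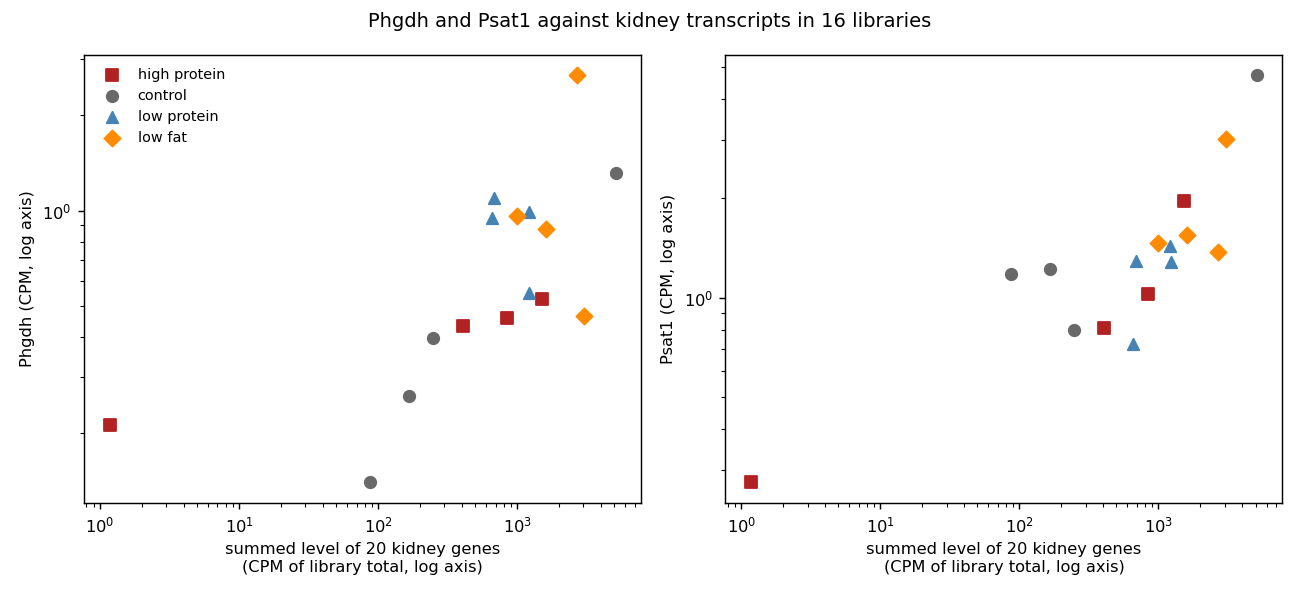
Each point is 1 of 16 libraries, with the summed level of 20 kidney genes in CPM of the library total on the horizontal axis and Phgdh (left) or Psat1 (right) in CPM on the vertical axis, both log, and with the diet given by colour and shape. Psat1 rises with the kidney level from high protein 1 at the far left to control 3 at the far right.

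The members did not move as 1 block between libraries. Of the pairs other than Fgf21 and Gdf15, Atf4 and Ddit3 had r = 0.67 over the 16 libraries and 0.54 without controls 3 and 4. Atf4 and Trib3 went from 0.35 to -0.30, and Atf4 and Chac1 from 0.46 to -0.30, when those 2 libraries were left out. Fgf21 and Ddit3 went from 0.14 to 0.70 without control 4 and high protein 1. The median log2 fold change of the 10 genes was -0.36 on high protein, -0.09 on low protein and -0.09 on low fat against control, and -0.18 for high against low protein, beside medians over all genes tested of -0.06, -0.03, -0.02 and -0.02.

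The other genes of the pathway comprised 70 genes in 7 lists, of which 67 were tested; the cystine transporter gene Slc7a11, Slc7a3 and Adm2 were too low. None passed the edgeR threshold in any comparison. At an unadjusted p under 0.05 there were 1 higher and 6 lower for high protein against control, 2 and 11 for low protein, 3 and 13 for low fat, and 4 and 4 for high against low protein. Of all genes tested, 2.48% were higher and 3.74% lower in this sense for high protein, 2.35% and 4.73% for low protein, 3.09% and 6.13% for low fat, and 2.34% and 2.83% for high against low protein. High and low protein did not overlap for 9 of the 67, 7 of them higher and 2 lower on high protein, where 3.15% of all genes were higher and 3.47% lower in this way. Against control, the libraries did not overlap for 0 genes higher and 1 lower on high protein, 1 higher and 3 lower on low protein, and 0 higher and 2 lower on low fat. The shares of all genes lower in this way were 0.841%, 0.869% and 1.32%. These 3 comparisons share control 4.

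Upstream, the list of eIF2alpha kinases, phosphatase subunits and eIF2B had 11, 12 and 12 of its 14 genes below control on high protein, low protein and low fat. Its median log2 fold changes were -0.19, -0.17 and -0.20. Of all genes tested, 41.7%, 45.6% and 47.6% were above control in the same order. Control 4, which all 3 comparisons share, was the highest library for 12 of the 14 genes. The genes of the list with the smallest p were Eif2ak4, which encodes GCN2, the sensor of uncharged tRNA, and Ppp1r15a. Eif2ak4 had log2 fold changes of -0.50, -0.45 and -0.51 in those comparisons (edgeR adjusted p = 0.762, 0.682 and 0.53), and -0.23, -0.18 and -0.26 without control 4. Ppp1r15a had -0.93, -1.58 and -1.45, and 0.59, -0.07 and 0.05 without control 4. Between high and low protein every high protein library was above every low protein one for Ppp1r15a, as for 3.15% of all genes in this direction. Its averages were 19.4 against 12.4 CPM (log2 fold change 0.65, edgeR adjusted p = 0.995), tested under a spread shared with control 4. Eif2ak3, the endoplasmic reticulum sensor PERK, had -0.47 (edgeR adjusted p = 0.973).

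Among 5 partner factors, Atf3 had log2 fold changes of -3.46, -3.86 and -3.69 on high protein, low protein and low fat against control (edgeR adjusted p = 0.762, 0.682 and 0.53). Without control 4 all 3 were above 0, at 1.13, 0.72 and 0.88. Cebpb, which encodes a C/EBP factor that pairs with ATF4, was at 26.3 CPM on high protein against 12.7 in controls and 11.8 on low protein (log2 fold changes 1.05 and 1.16, edgeR adjusted p = 0.763 and 0.973), and the second was 0.40 without high protein 3. Jdp2 was at 2.92 CPM on high protein against 1.56 on low protein (0.91, adjusted p = 0.947), Cebpg at -0.24 on low protein (adjusted p = 0.692) and Nupr1 at 0.76 on low fat (adjusted p = 0.539).

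In the list of serine, one-carbon, proline and transamination enzymes, Mthfd1l, a mitochondrial enzyme of formate production, had the lowest p of the pathway for high against low protein. It was at 11.1, 4.76, 4.79 and 19.9 CPM on high protein and at 2.80, 3.48, 3.75 and 3.04 on low protein, so the groups did not overlap, as for 3.15% of all genes in this direction. The log2 fold change was 1.63 ± 0.41 (SE, edgeR adjusted p = 0.892), and 1.09 without high protein 4. DESeq2 gave an adjusted p of 0.0491, the only value of the named genes past the threshold in any alternative. Against control the low protein value was -1.03 (edgeR adjusted p = 0.682), with all 4 libraries below the 4 controls, as for 0.869% of all genes. Aldh18a1, of proline synthesis, was lower in all 4 high protein libraries than in all low protein ones, as for 3.47% of all genes (1.07 against 1.68 CPM, log2 fold change -0.65, edgeR adjusted p = 0.96).

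Pycr1, the last enzyme of proline synthesis, and Mthfd2 had log2 fold changes of -0.67 and -1.05 on high protein against control (edgeR adjusted p = 0.762 for both), and for Pycr1 the groups did not overlap (0.841% of all genes in this direction). Got1, the cytosolic aspartate aminotransferase, was at 7401 CPM in control 4 and at 573 or below in the other controls. Its log2 fold change was -3.07 on low protein and on low fat (edgeR adjusted p = 0.682 and 0.53), and -0.75 and -0.77 without control 4. All 4 low protein libraries lay below the 4 controls for Got1, as for 0.869% of all genes. Gpt2, an alanine aminotransferase, had -1.19 on low fat (adjusted p = 0.53) and -0.28 without control 4.

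Of 7 tested amino acid transporters, 7, 6 and 5 were below control on high protein, low protein and low fat, where 41.7%, 45.6% and 47.6% of all genes were above it. Slc38a2, the neutral amino acid transporter SNAT2, was at 337, 309, 222 and 412 CPM on high protein and at 132, 175, 161 and 119 on low protein. The groups did not overlap, as for 3.15% of all genes in this direction. The log2 fold change was 1.12 ± 0.45 (SE, edgeR adjusted p = 0.947), with 0.99 without high protein 4. Against control it was -1.30 on low protein and -1.20 on low fat (adjusted p = 0.682 and 0.53), and -0.31 and -0.23 without control 4, in which it was at 904 CPM. Slc1a4, a transporter of serine and other neutral amino acids, was on the contrary lower on high protein than on low protein (7.50 against 12.3 CPM, -0.71, edgeR adjusted p = 0.946) and than in controls (-0.67, adjusted p = 0.762). Slc7a1 had -0.69 on high protein against control, Slc3a2 had -0.41 on low protein and Slc6a9 -0.66 on low fat (edgeR adjusted p = 0.762, 0.682 and 0.568). Without control 4 these 3 values became -0.59, -0.06 and -0.09.

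Of 13 genes of tRNA charging and tRNA export, 12, 11 and 8 were below control on high protein, low protein and low fat, with medians of -0.23, -0.10 and -0.03. The shares of all genes above control were 41.7%, 45.6% and 47.6%. Tars, the threonyl-tRNA synthetase gene, was at 54.7, 58.9, 79.7 and 44.3 CPM on high protein and at 114, 86.3, 99.98 and 94.9 on low protein. The groups did not overlap, as for 3.47% of all genes in this direction, and the log2 fold change was -0.73 ± 0.25 (SE, edgeR adjusted p = 0.921). Against control it was -0.76 on high protein (adjusted p = 0.762) and -0.71 without control 4. Gars had -0.23 on high protein and -0.24 on low protein, Eprs -0.43 on low protein, Cars -0.40 for high against low protein, and Xpot, a tRNA export factor, -0.26 on low fat (edgeR adjusted p = 0.762, 0.682, 0.682, 0.96 and 0.53). Gars on low protein and Xpot on low fat did not overlap control, as for 0.869% and 1.32% of all genes in this direction. Without control 4 the values of Gars became -0.15 and -0.17, that of Eprs -0.15 and that of Xpot -0.25. Wars was at 25.6 CPM on low fat against 20.3 in controls (0.34, adjusted p = 0.534).

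Among 7 tested effectors of growth control, Ddit4 was at 21.3, 15.0, 36.9 and 203 CPM on high protein and at 10.5, 12.6, 8.43 and 7.65 on low protein. The groups did not overlap, as for 3.15% of all genes in this direction. The log2 fold change was 2.82 ± 1.28 (SE, edgeR adjusted p = 0.96), and 1.33 without high protein 4. Against control Ddit4 had -4.41 on low protein and -3.54 on low fat (edgeR adjusted p = 0.682 and 0.53), and -0.76 and 0.11 without control 4. Sesn2 had -1.11 on high protein and -1.51 on low protein, and 0.66 and 0.25 without control 4. Sqstm1 had -0.48 on high protein, Fam129a 0.50 on low fat, and Eif4ebp1 0.11 for high against low protein (edgeR adjusted p = 0.763, 0.54 and 0.998). Without control 4, in which Sqstm1 was at 902 CPM, its value was 0.07.

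Of 10 receptors of FGF21 and regulators of its gene, Creb3l3, a liver transcription factor that acts on Fgf21 in fasting, was at 433 CPM on high protein and 375 on low protein against 291 in controls. Its log2 fold changes of 0.57 ± 0.15 and 0.36 ± 0.15 (SE) had edgeR adjusted p of 0.762 and 0.682, and 3 of 4 high protein libraries lay above every control. Control 4 was the lowest of the 16 libraries for Creb3l3, at 245 CPM. Over all alternatives the 2 values ran from 0.41 to 0.69 and from 0.20 to 0.48. Ppara, the fatty acid receptor that drives Fgf21 in fasting, was higher in all 4 low protein libraries than in all controls, as for 1.61% of all genes (123 against 86.9 CPM, log2 fold change 0.50, edgeR adjusted p = 0.682, and 0.32 without control 4). Mlxipl, which encodes the carbohydrate sensor ChREBP, was at 196 CPM on high protein against 298 on low protein (-0.60, edgeR adjusted p = 0.947), and Fgfr3 had -0.48 (adjusted p = 0.96). Klb, the co-receptor of FGF21, had -0.64 on low fat and Rora -0.60 on high protein and -0.78 on low fat (edgeR adjusted p = 0.53, 0.762 and 0.53). Without control 4 these became -0.26 for Klb and 0.01 and -0.19 for Rora.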

How the data were processed

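Whole-liver RNA-seq of 16 animals was analysed from a single table of read counts that the authors deposited, whole numbers per gene beside gene positions and exon length. Build GRCm38.p6, Trimmomatic 0.39, STAR 2.7.0f, featureCounts of Subread 1.6.4 and edgeR 3.32.1 are named in the submitters' processing notes; settings, strandedness of counting and annotation release were not given in the sources used here. The library kit was directional per the labels' protocols. Identifiers were matched to GENCODE M21 (53861 of 54752 with version, 862 more without, 29 with no symbol).

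Counts were fitted with edgeR 4.0.16 (R 4.3.3): filterByExpr, TMM factors, 4 diet means over all 16 libraries (12 residual degrees of freedom), quasi-likelihood test, two-sided, Benjamini-Hochberg over 17833 genes at 0.05. CPM uses TMM-scaled totals and marker sums use plain totals. Intervals of log2 fold changes are 95%. Replicates are separate animals by their titles, with litter and cage unknown, and p-values reflect only the variation among them. Libraries of a diet differed beyond sampling noise in all 24 pairs (chi-square over its degrees of freedom at least 44.8).

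The members and lists were chosen with earlier results of these data known. All 10 members were named in every comparison, with up to 2 genes of smallest p per list and comparison and the 5 genes most like Fgf21. Alternatives were RLE factors, DESeq2 1.42.0, limma-voom (limma 3.58.1) with library weights, no filter, a filter of over 1 CPM in 4 libraries, the compared groups alone, a replicate block, the kidney level as a covariate, each library left out, and controls 3 and 4 left out together. The steps were tested on simulated data.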

Additional observations from a re-analysis of the deposited data

Results flagged for a closer look

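In a diet's 4 libraries, 1 value was flagged where its gap to the nearest other, as a share of the whole range, exceeded Dixon's 95% critical value. For normally distributed values chance flags about 1 in 20 groups, but the rule was applied to CPM, which need not be normal. The pathway genes were also named by their small p, so that rate is no baseline here. Over the 46 members and named pathway genes, 23 of 184 pairs of gene and diet were flagged. Of these, 12 were high values of control 4, and as genes of 1 library are not independent, the count is no measure of their number of causes. Among the members, Atf4 in control 4 was at 433 CPM (next highest control 86.3), Trib3 in high protein 3 at 39.8 (next 15.4) and in low protein 4 at 54.2 (next 23.6), and Psat1 in control 3 at 4.72 (next 1.22) and in low fat 3 at 3.03 (next 1.55). The Psat1 pair are the libraries with the most kidney transcripts of their diets. Low protein 4 and high protein 3 were also the highest of their diets in Fgf21 and Gdf15.

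Of the pathway genes in control 4, Atf3 was at 162 CPM, Ppp1r15a at 110, Sesn2 at 138, Ddit4 at 786, Sqstm1 at 902, Slc38a2 at 904, Slc3a2 at 87.5, Got1 at 7401, Gpt2 at 2202, Rora at 242 and Klb at 66.4. High protein 4 was high for Ddit4 at 203 CPM, Ppp1r15a at 28.3 and Nupr1 at 1.70. The others were Atf3 in low protein 1 at 4.55, Jdp2 in low protein 4 at 2.60 and Cebpb in low fat 4 at 26.4 CPM, all high, and Gars in low protein 2 at 42.6 CPM, low.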

How the results depend on the processing

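No member passed the threshold in any alternative: of 1000 alternative fold changes of the 10 members, 45 turned sign, in 19 of 40 results, and the smallest adjusted p was 0.0685. Over members and named pathway genes 73 of 2399 values turned sign and 1 passed, with DESeq2. DESeq2 called 1 gene for high protein against control, 10 for low protein against control, 4 for low fat against control and 25 for high against low protein, where edgeR called 0. Leaving out 1 library gave 0 to 109 genes for low fat against control (109 without control 3) and 0 to 2 for high against low protein (2 without high protein 3). With replicate numbers as a block edgeR called 0 genes in each comparison. After each diet's mean was subtracted from log2 CPM, same-numbered libraries of different diets correlated at over 0.1 in 8 of 24 pairs (median 0.039). Of 16 libraries, 6 correlated best with a library of their own number. This description cannot tell whether the numbers pair animals, as litter and cage are unknown. The cause of the sign changes below was not tested.

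The replicate block turned Atf4 for high against low protein to -0.02 and Psat1 for low fat against control to 0.02. The kidney covariate gave 0.07 for Phgdh on high protein against control, -0.14 for Ddit3 and 0.23 for Psat1 for high against low protein, and 0.18 for Ddit3 on low fat. Limma-voom with weights gave, on high protein against control, -0.29 for Fgf21, 0.57 for Trib3, 0.47 for Phgdh, 0.80 for Atf3, 0.43 for Ppp1r15a and 0.62 for Sesn2; on low protein 0.45 for Atf3 and 0.47 for Sesn2; on low fat 0.38 for Ddit3, 0.75 for Trib3, 0.14 for Psat1, 0.84 for Atf3 and 0.08 for Ppp1r15a; and -0.15 for Chac1 for high against low protein. Without controls 3 and 4 high protein gave 0.79 for Trib3, 1.01 for Phgdh, 0.24 for Slc7a1, 1.13 for Atf3, 0.55 for Ppp1r15a, 1.12 for Sesn2 and 0.05 for Sqstm1. In that setting low protein gave 0.03 for Slc3a2, 0.73 for Atf3 and 0.72 for Sesn2, and low fat 0.18 for Ddit3, 0.73 for Trib3, 0.62 for Psat1, 0.90 for Atf3, 0.04 for Ppp1r15a and 0.08 for Ddit4.

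Leaving out 1 library at a time turned these signs. On high protein against control the ranges were -1.20 to 0.18 for Atf4, -0.26 to 0.07 for Atf5, -0.51 to 0.16 for Ddit3, -1.0 to 0.52 for Trib3, -0.72 to 0.64 for Phgdh, -0.74 to 0.01 for Rora, -3.86 to 1.13 for Atf3, -1.22 to 0.59 for Ppp1r15a, -1.50 to 0.66 for Sesn2 and -0.64 to 0.07 for Sqstm1. On low protein they were -1.32 to 0.06 for Atf4, -0.67 to 0.04 for Ddit3, -0.15 to 1.17 for Trib3, -1.03 to 0.15 for Psat1, -4.26 to 0.72 for Atf3 and -1.86 to 0.25 for Sesn2. On low fat they were -1.29 to 0.07 for Atf4, -0.51 to 0.38 for Ddit3, -0.79 to 0.43 for Trib3, -0.45 to 0.81 for Psat1, -4.09 to 0.88 for Atf3, -1.75 to 0.05 for Ppp1r15a and -4.28 to 0.11 for Ddit4. For high against low protein they were -0.75 to 0.49 for Gdf15, -0.09 to 0.25 for Atf4, -0.07 to 0.36 for Ddit3, -0.43 to 0.32 for Chac1 and -0.75 to 0.10 for Psat1. The positive ends against control came without control 4, except for Atf5 (control 1) and Phgdh and Psat1 (control 3); the negative end for Trib3 came without low protein 4. With 4 animals per diet and counts as low as 3 for Fgf21, the intervals give the sizes allowed under a spread shared by all 4 diets. A p that misses the threshold does not show equal levels.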
